A study of Mus musculus with 10 samples.

Results

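Trem2, Tyrobp and 7 genes that act downstream of them were followed in RNA-seq of microglia from the mouse cortex. The 9 genes were taken by symbol from the deposited counts, where they are 9 of 24421 symbols, and all of them passed the filter on low counts. The libraries came from 9-month-old mice in 3 groups, WT (n = 3 libraries), APP/PS1 (n = 4) and APP/PS1+N-AS (n = 3), and each library was a pool of 2 mice. APP/PS1 mice over-express the hAPP695swe and presenilin-1 M146V mutations and are used as a model of Alzheimer's disease. APP/PS1+N-AS mice are the same line after N-acetyl sphingosine (N-AS), a short-chain ceramide, had been given subcutaneously at 30 mg/kg every day for 8 weeks from 7 months of age. The APP/PS1 libraries carry no treatment in their labels. Cortex was dissociated with papain and microglia were separated on an Optiprep density gradient, without a sort on a surface marker.

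TREM2 is a receptor on the surface of microglia and other myeloid cells that binds lipids, lipoproteins and amyloid β. It has no signalling tail of its own and pairs with TYROBP, also known as DAP12, an adaptor whose cytoplasmic ITAM is phosphorylated by Src family kinases such as LYN. The phosphorylated ITAM recruits the kinase SYK, which acts through the adaptor BLNK, the exchange factor VAV1 and the phospholipase PLCG2. PIK3AP1, also known as BCAP, links the same signal to PI3 kinase, and INPP5D, also known as SHIP1, removes the lipid that PI3 kinase makes. Variants in human TREM2, PLCG2 and INPP5D are linked to the risk of Alzheimer's disease.

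In the GRCm38 annotation Trem2 lies at chr17:48346401-48354147 and Tyrobp at chr7:30413760-30417585, both on the plus strand. The downstream genes are on chromosomes 4 (Lyn), 13 (Syk), 19 (Blnk and Pik3ap1), 17 (Vav1), 8 (Plcg2) and 1 (Inpp5d). Blnk and Pik3ap1 are separated by 277841 bases that hold 4 protein-coding genes. Lyn shares exonic bases with a noncoding gene on the opposite strand, Gm26857, and whether reads were counted by strand is not stated, so reads of that overlap could belong to either gene.

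Promoter sequence is shown because these genes were measured together in the same microglial fractions and because the myeloid factor PU.1 is known to bind a purine-rich box. RefSeq windows of GRCm38.p6, from 250 bases before to 50 bases after a transcription start, were at hand for 7 of the 9 genes, with a pair of start sites for Syk. The PU box GAGGAA, searched on both strands, was in 5 of the 8 windows of these genes, against 28.3% of all 32851 windows of that length. The 5 windows are printed 5′ to 3′ on the strand of the gene, with each PU box in capitals (TTCCTC where the box is on the opposite strand).
Trem2, chr17:48346151-48346450, plus strand: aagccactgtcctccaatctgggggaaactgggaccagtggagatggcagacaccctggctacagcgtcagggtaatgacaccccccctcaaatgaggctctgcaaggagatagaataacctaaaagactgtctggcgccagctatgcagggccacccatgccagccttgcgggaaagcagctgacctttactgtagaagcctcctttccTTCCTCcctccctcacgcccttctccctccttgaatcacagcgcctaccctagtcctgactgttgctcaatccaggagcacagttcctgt
Syk, the second start, chr13:52596632-52596931, plus strand: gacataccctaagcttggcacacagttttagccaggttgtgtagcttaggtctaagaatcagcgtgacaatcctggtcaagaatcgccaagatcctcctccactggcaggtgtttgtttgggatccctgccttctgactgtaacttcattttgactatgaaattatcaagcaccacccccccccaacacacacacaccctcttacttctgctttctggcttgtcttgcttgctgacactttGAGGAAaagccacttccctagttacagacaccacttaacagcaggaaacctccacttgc
Vav1, chr17:57278850-57279149, plus strand: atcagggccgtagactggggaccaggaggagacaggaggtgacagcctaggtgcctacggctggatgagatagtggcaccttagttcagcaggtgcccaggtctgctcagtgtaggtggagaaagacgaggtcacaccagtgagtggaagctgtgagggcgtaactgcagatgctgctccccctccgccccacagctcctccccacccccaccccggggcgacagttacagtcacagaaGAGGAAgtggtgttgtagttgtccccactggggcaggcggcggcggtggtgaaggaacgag
Pik3ap1, chr19:41385053-41385352, minus strand: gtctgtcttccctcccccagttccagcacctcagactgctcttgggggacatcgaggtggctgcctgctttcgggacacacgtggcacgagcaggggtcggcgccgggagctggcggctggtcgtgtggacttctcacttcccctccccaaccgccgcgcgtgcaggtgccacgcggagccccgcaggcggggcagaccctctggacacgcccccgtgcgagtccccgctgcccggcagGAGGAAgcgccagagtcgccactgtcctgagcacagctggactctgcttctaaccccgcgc
Inpp5d, chr1:87620062-87620361, plus strand: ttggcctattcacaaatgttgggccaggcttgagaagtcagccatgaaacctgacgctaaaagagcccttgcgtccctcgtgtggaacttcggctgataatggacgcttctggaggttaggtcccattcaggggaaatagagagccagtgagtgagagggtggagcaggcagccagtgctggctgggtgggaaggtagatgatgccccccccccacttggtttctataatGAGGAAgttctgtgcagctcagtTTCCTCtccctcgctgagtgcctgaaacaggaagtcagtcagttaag
In Vav1 and Pik3ap1 the box began 11 bases before the start, and in Syk 9 bases before it. Inpp5d held 2 boxes, one of them beginning 20 bases before the start. The AP-1 site TGANTCA was in the Trem2 window alone, 9 bases before the start (7.81% of all windows), and the E-box TCACGTG of the MiT family in the Plcg2 window alone, 21 bases before it (3.77% of all windows). Blnk and the first Syk start held none of these letters in their windows.

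The total count per library ranged from 8805804 to 19432075, lowest in WT library 1. Microglial markers were detected in every library, and so were those of oligodendrocytes, whose 6 markers summed to 2215 to 6371 CPM in WT (CPM are counts scaled to the TMM-adjusted library size), so RNA of other brain cells was present. In WT 6 neuronal markers summed to 1384 to 4663 CPM, most in WT library 3, beside 742 to 1166 CPM for 9 microglial receptor and phagocyte genes. Over the 10 libraries, border macrophage markers summed to 22.8 to 48.2 CPM and monocyte markers to 4.72 to 13.8 CPM, and their part was not tested. Xist, expressed from the inactive X of females, was counted at 33 to 37 reads per WT library and at 5253 to 11188 per APP/PS1 library, whereas N-AS library 3 held 29 and the other N-AS libraries 7024 and 8848. The study's methods state male mice. APP/PS1 and WT therefore cannot be told apart from the Xist state of their libraries, and the calls among the 9 genes in the comparisons with N-AS are also given without N-AS library 3. Leaving that library out matches N-AS to APP/PS1 in Xist state, but not to WT.

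To see how the receptor complex was expressed in the disease model, APP/PS1 microglia were compared with WT microglia. Trem2 and Tyrobp were each about 10-fold higher in APP/PS1, and the 7 downstream genes were 1.78-fold to 2.58-fold higher. With edgeR's quasi-likelihood test and Benjamini-Hochberg adjustment over 18727 genes, 8 of the 9 genes rose (adjusted p under 0.05) and Syk did not pass. Of all genes tested, 2.67% rose and 0.796% fell. In all 9 genes the APP/PS1 libraries lay above every WT library, which held for 8.15% of all genes.

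Trem2 was at 12.1, 10.3 and 16.6 CPM in the WT libraries and at 105, 126, 134 and 170 CPM in the APP/PS1 libraries. Tyrobp was at 6.17, 5.75 and 9.78 CPM in WT and at 66.2, 63.9, 90.7 and 87.5 CPM in APP/PS1. WT library 3 was the highest WT library for both genes, and the lowest APP/PS1 library was still far above it. The log2 fold change was 3.36 ± 0.29 (SE) for Trem2 and 3.40 ± 0.28 for Tyrobp, each with an edgeR adjusted p of 0.000379. The labels number the libraries from 1 to 10 across groups, and symbols at 0 were fewer in 7 to 10 than in most of 1 to 6, so both sets were also taken alone. Within libraries 1 to 6 the 9 genes were 0.71 to 3.42 higher on the log2 scale and within libraries 7 to 10, where WT has 1 library, 0.89 to 3.18 higher. By p-value, Tyrobp ranked 4 and Trem2 ranked 7 among all genes tested.

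**Figure D1:**
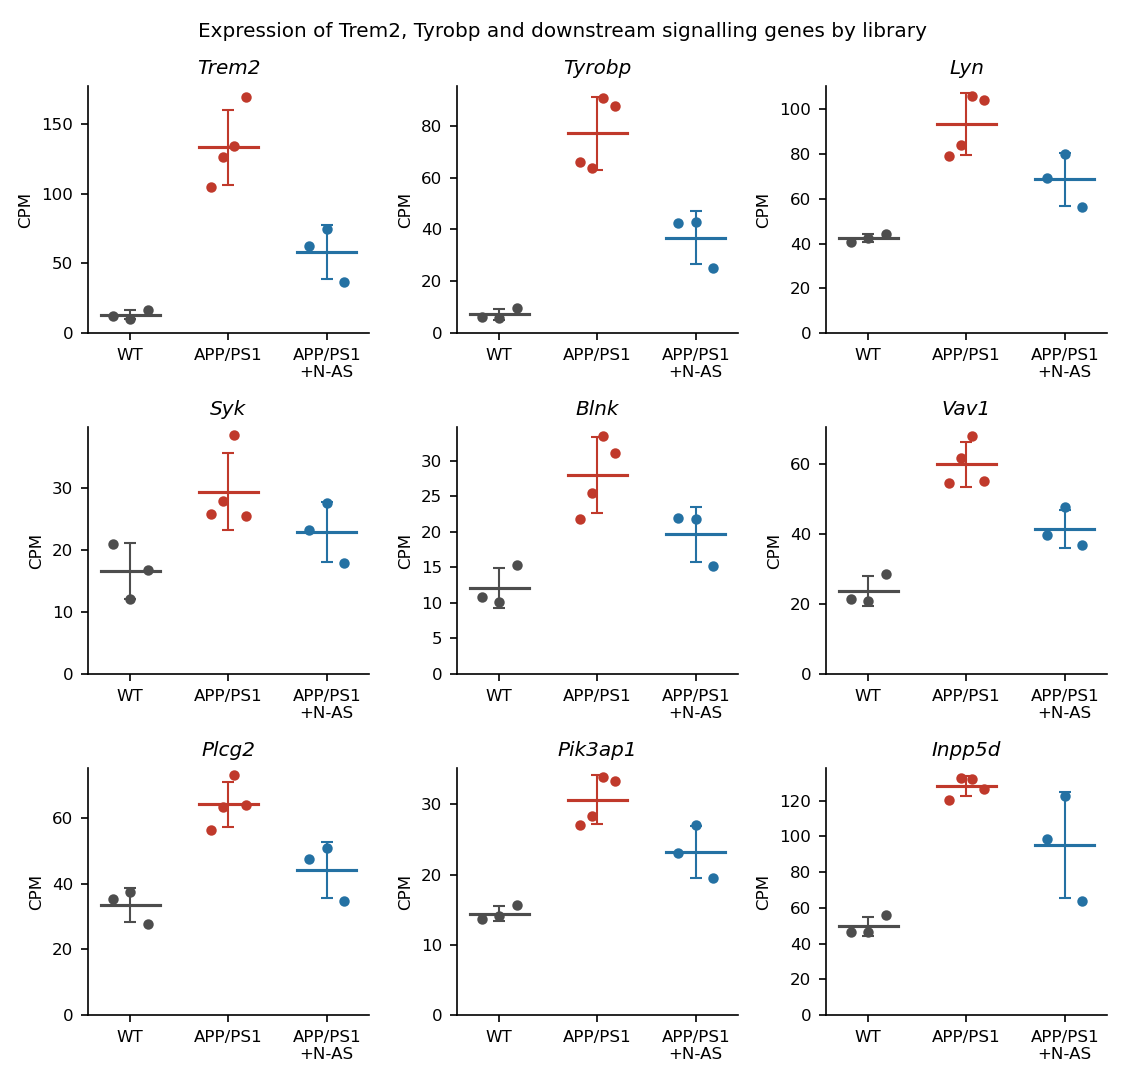
Expression of the 9 genes in each library, in CPM scaled by TMM (y axis, from 0), for WT (n = 3), APP/PS1 (n = 4) and APP/PS1+N-AS (n = 3). Points are libraries, horizontal lines are means and error bars are SD, and in every panel all APP/PS1 points lie above all WT points.

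Of the kinases, Lyn, the Src family kinase, was at 40.6, 42.7 and 44.4 CPM in WT and at 79.1, 83.9, 106 and 104 CPM in APP/PS1. Its WT libraries differed little among themselves (SD 1.90 CPM), and its log2 fold change was 1.13 ± 0.16 (edgeR adjusted p = 0.00359). Syk, which binds the phosphorylated ITAM, was at 21.0, 12.1 and 16.9 CPM in WT and at 25.8, 27.9, 38.6 and 25.5 CPM in APP/PS1. The highest WT library of Syk lay just below the lowest APP/PS1 library, and its log2 difference of 0.83 ± 0.23 gave an edgeR adjusted p of 0.0786 (unadjusted 0.00402). DESeq2 gave Syk an adjusted p of 0.0138.

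Of the adaptors and the exchange factor, Blnk, the scaffold that SYK phosphorylates, was at 10.8, 10.1 and 15.3 CPM in WT and at 21.8, 25.5, 33.5 and 31.0 CPM in APP/PS1 (log2 fold change 1.20 ± 0.21, edgeR adjusted p = 0.0130). This call was lost when WT library 1 or WT library 2 was left out (adjusted p = 0.0555 and 0.0561). Pik3ap1, the PI3 kinase adaptor, was at 13.7, 14.04 and 15.7 CPM in WT and at 27.1, 28.4, 33.9 and 33.4 CPM in APP/PS1 (1.08 ± 0.15, edgeR adjusted p = 0.00325). Vav1, the exchange factor for Rac GTPases, was at 21.5, 21.0 and 28.6 CPM in WT and at 54.7, 61.8, 68.2 and 55.3 CPM in APP/PS1 (1.34 ± 0.16, edgeR adjusted p = 0.00140). These 3 genes were at least 2.12-fold higher in APP/PS1 and their groups did not overlap.

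Of the enzymes that act on phosphoinositides, Plcg2, which cleaves PIP2, was at 35.4, 37.5 and 27.6 CPM in WT and at 56.4, 63.5, 73.0 and 63.9 CPM in APP/PS1 (log2 fold change 0.94 ± 0.17, edgeR adjusted p = 0.0135). Inpp5d, the lipid phosphatase that opposes PI3 kinase, was at 46.7, 46.3 and 55.8 CPM in WT and at 121, 133, 132 and 127 CPM in APP/PS1 (1.37 ± 0.20, edgeR adjusted p = 0.00437). The transcript of the enzyme that opposes the signal was thus higher, as were those of the genes that carry it, of which Syk did not pass. Signalling itself was not measured. The APP/PS1 libraries of Inpp5d were the tightest of the 9 genes (coefficient of variation 4.47%). Downstream genes, Blnk, Syk, Lyn and Plcg2 among them, also act in B cells. The 5 B-cell markers summed to 2.02 to 7.48 CPM in the WT libraries, with 2.31 to 5.73 CPM under APP/PS1 and 1.62 to 2.04 CPM after N-AS. The part of B cells in the values of the 9 genes was not tested.

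**Figure D2:**
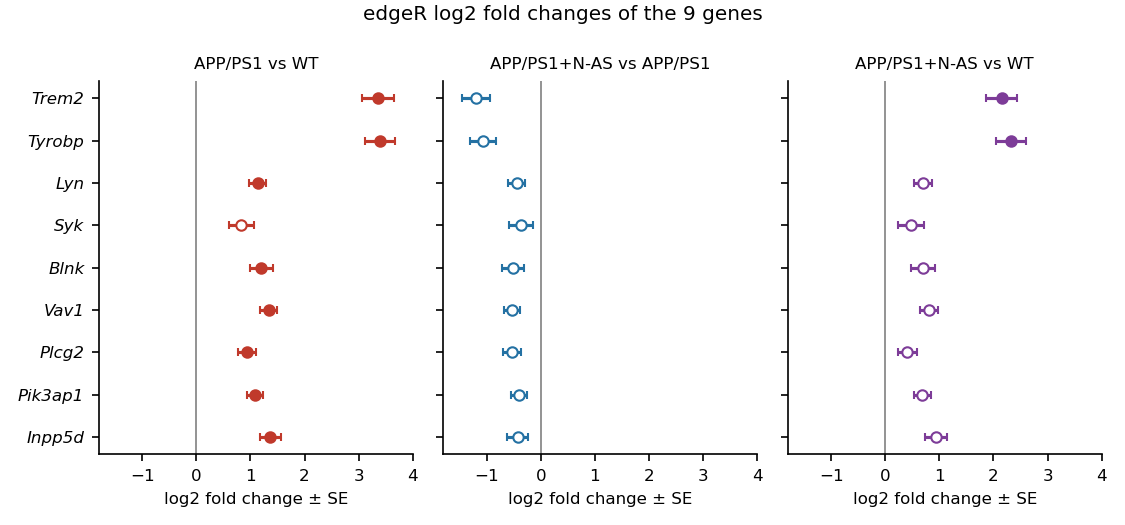
Log2 fold changes (x axis) of the 9 genes from edgeR's quasi-likelihood test, with bars of 1 SE, for APP/PS1 against WT, APP/PS1+N-AS against APP/PS1 and APP/PS1+N-AS against WT. Filled points have an adjusted p under 0.05 over 18727 genes. Trem2 (3.36 and −1.20 in the first 2 panels) and Tyrobp (3.40 and −1.07) lie farthest from 0.

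The levels were then set beside those of microglial markers in the same libraries, because these bulk libraries hold other cells and because more microglia and more RNA per microglial cell cannot be told apart in them. The mean log2 CPM of 14 microglial markers (9 receptor and phagocyte genes and 5 homeostatic genes) was 1.62 higher in APP/PS1 than in WT, and that of the 9 genes was 1.63 higher. The summed CPM of the receptor and phagocyte genes was 742 to 1166 in WT against 3019 to 4379 in APP/PS1, and that of the homeostatic genes was 257 to 365 against 482 to 651, with no marker at 0 throughout a group. Some markers of other brain cells also moved. The 6 oligodendrocyte markers summed to 1794 to 4485 CPM in APP/PS1 (2215 to 6371 CPM in WT) with a median log2 difference of −1.17, and 1 of them fell, Cnp (−1.68, edgeR adjusted p = 0.0194). The 6 astrocyte markers summed to 2395 to 3802 CPM in APP/PS1 against 2145 to 2557 CPM in WT, and 1 of them rose, Gfap (5.65, edgeR adjusted p = 0.000545). The median log2 difference of the astrocyte markers was −0.08. The part of any of these markers in the rise of each gene was not tested.

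Relative to the 14 markers the 9 genes did not move as one. Trem2 was 1.73 and Tyrobp 1.79 higher in APP/PS1 on the log2 scale, with no overlap between groups, and both were also higher without overlap against the 9 receptor and phagocyte genes (1.36 and 1.42) and against the 5 homeostatic genes (2.39 and 2.45). The 7 downstream genes differed by −0.25 (Inpp5d) to −0.79 (Syk) relative to the 14 markers, and 6 of them did not overlap. Against the 9 receptor and phagocyte genes all 7 were lower without overlap, by −0.62 (Inpp5d) to −1.16 (Syk). Against the 5 homeostatic genes alone they differed by −0.13 (Syk) to 0.41 (Inpp5d), and 5 of them overlapped. Vav1 (0.38) and Inpp5d were higher without overlap against that reference. The mean log2 CPM of Trem2 and Tyrobp minus that of the 7 downstream genes was −1.33 ± 0.27 (SD, n = 3) in WT, 0.93 ± 0.17 (n = 4) in APP/PS1 and 0.23 ± 0.21 (n = 3) in APP/PS1+N-AS. These are descriptions without a test, and a difference within a library shows unequal change only.

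**Figure D3:**
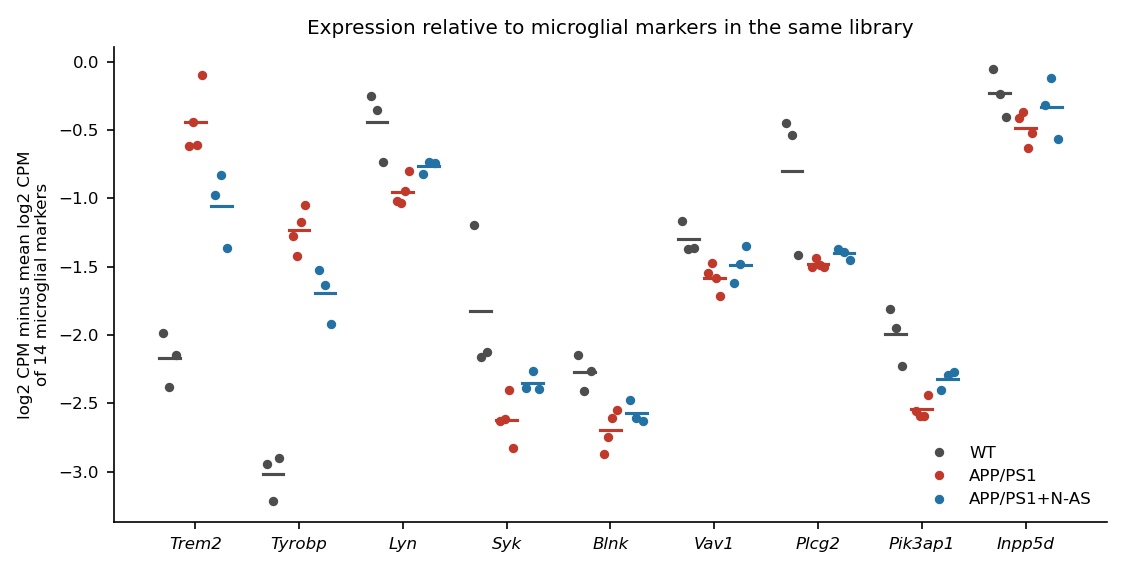
Log2 CPM of each gene minus the mean log2 CPM of 14 microglial markers in the same library (y axis). Points are libraries and lines are group means. Trem2 and Tyrobp are higher in APP/PS1 than in WT on this scale. The 7 downstream genes are lower in mean, 6 of them without overlap of libraries. All 7 were lower without overlap against the 9 receptor and phagocyte genes. With the 5 homeostatic genes as the reference 5 of them overlapped, and Vav1 and Inpp5d were higher without overlap. Log2 fold changes of the 14 markers themselves ran from 0.36 (P2ry12) to 2.67 (Ctss).

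Because transcripts differ in length, the 9 genes were compared with each other in level per kb of the longest protein-coding transcript. In WT the order began with Lyn (12.3 ± 0.549 CPM per kb, SD, n = 3), Tyrobp (12.1 ± 3.70) and Trem2 (11.9 ± 2.95), 3 genes whose libraries overlapped. Inpp5d, Vav1, Plcg2 and Blnk followed between 10.04 and 5.76 CPM per kb, each overlapping its neighbour, and Pik3ap1 (3.22) and Syk (3.10), whose libraries overlapped each other, lay below all of them. In APP/PS1 Tyrobp (129 ± 23.4 CPM per kb, n = 4) and Trem2 (123 ± 24.8) overlapped each other and were in all 4 libraries above Lyn (26.9 ± 3.98), the next gene. Inpp5d, at 25.9 CPM per kb, overlapped Lyn and was apart from Vav1 (20.2), which was apart from Plcg2 (14.9). Plcg2 overlapped Blnk (13.3), and Pik3ap1 (6.85) overlapped Syk (5.49), the lowest of the 9 genes.

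In APP/PS1+N-AS Tyrobp (61.7 ± 17.2 CPM per kb, n = 3) and Trem2 (53.3 ± 17.9) again led, apart from Lyn (19.8), and the order of all 9 genes was that of APP/PS1. With the union of all annotated exons as the length (4946 bases for Trem2 against 1088 for its longest coding transcript), the level of Trem2 was 2.63 CPM per kb in WT, 27.0 in APP/PS1 and 11.7 in APP/PS1+N-AS, and its place in the order was 6, 2 and 4. The level of Trem2 beside the other genes therefore depends on which transcript is assumed.

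**Figure D4:**
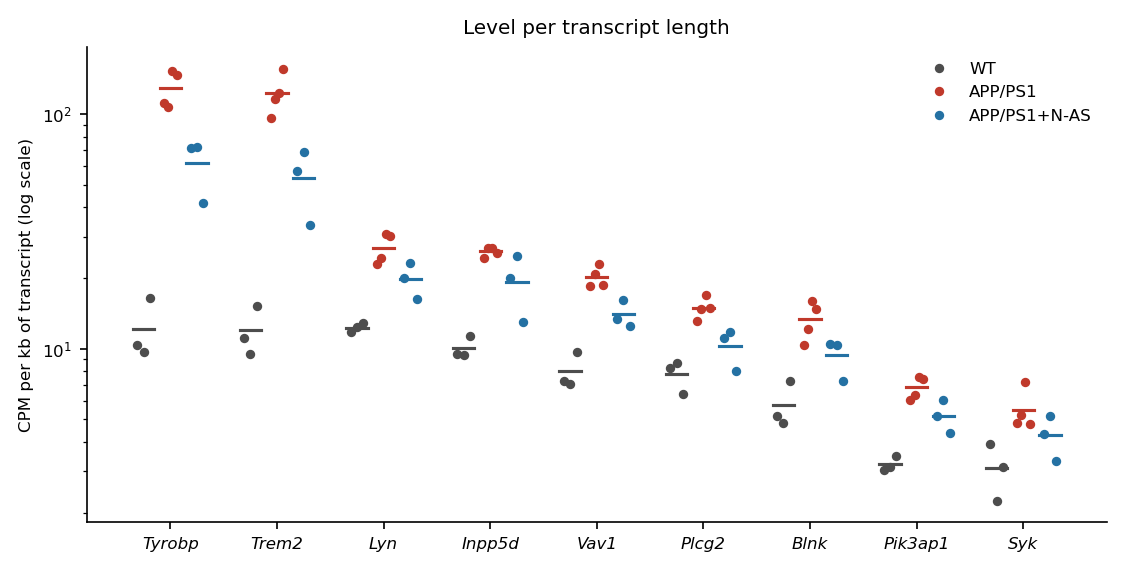
Level of each gene in CPM per kb of its longest protein-coding transcript (y axis, log scale), by library, with lines at group means, for genes ordered by their mean in APP/PS1. Tyrobp and Trem2 are level with Lyn in WT and are at 129 and 123 CPM per kb in APP/PS1, above Lyn at 26.9.

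The ratio of receptor to adaptor was examined within each library. The log2 CPM of Trem2 minus that of Tyrobp was 0.85 ± 0.10 in WT (SD, n = 3), 0.79 ± 0.21 in APP/PS1 (n = 4) and 0.63 ± 0.14 in APP/PS1+N-AS (n = 3). APP/PS1 and WT differed by −0.06 (two-sided exact permutation test over libraries, p = 0.629, where 0.0286 is the smallest p possible, and 0.1 in N-AS against WT). Inpp5d minus Syk was 0.54 higher in APP/PS1 than in WT (exact permutation p = 0.0857, 0.45 after adjustment over 9 ratio tests), and Plcg2 minus Syk was 0.11 higher (exact permutation p = 0.743). None of the 9 tests passed after adjustment, with adjusted p between 0.45 and 1. With so few libraries no single ratio could have passed on its own after adjustment over 9 tests. The tests therefore cannot show that the ratios were unchanged.

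Next, the effect of N-AS in APP/PS1 mice was examined. All 9 genes were lower in APP/PS1+N-AS than in APP/PS1, and none of them passed the adjusted threshold (edgeR adjusted p between 0.478 and 0.669), as was the case for all genes tested (0% called). At an unadjusted p under 0.05, 8 of the 9 genes were lower, against 4.05% of all genes. In 5 genes, Trem2, Tyrobp, Vav1, Plcg2 and Pik3ap1, every N-AS library lay below every APP/PS1 library, against 6.46% of all genes. DESeq2 called 2 of the 9 genes, Trem2 (adjusted p = 0.00588) and Tyrobp (adjusted p = 0.0146). Of all 18727 genes it called 57 lower and 22 higher.

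Trem2 was at 62.3, 74.9 and 36.7 CPM in the N-AS libraries, which is 0.434 of the APP/PS1 mean (log2 difference −1.20 ± 0.26, edgeR adjusted p = 0.478). Tyrobp was at 42.6, 42.9 and 24.9 CPM, or 0.478 of the APP/PS1 mean (−1.07 ± 0.24, edgeR adjusted p = 0.478). N-AS library 3 was the lowest of its group for both genes, and without it the differences were −0.95 and −0.84 (edgeR adjusted p = 0.677 for both), and 0 of the 9 genes passed.

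Lyn was at 69.4, 80.2 and 56.5 CPM in the N-AS libraries and Syk at 23.3, 27.6 and 17.9 CPM, and both overlapped their APP/PS1 libraries. Blnk, at 22.0, 21.8 and 15.2 CPM, also overlapped. Vav1, at 39.8, 47.7 and 37.0 CPM, Plcg2, at 47.5, 50.8 and 34.6 CPM, and Pik3ap1, at 23.1, 27.1 and 19.6 CPM, did not. Their highest N-AS libraries nevertheless came close to their lowest APP/PS1 libraries, at 27.06 and 27.07 CPM for Pik3ap1. Inpp5d was at 98.8, 123 and 64.1 CPM and had the widest N-AS spread of the downstream genes (SD 29.5 CPM).

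For all 9 genes N-AS library 3 was the lowest N-AS library. The log2 differences of the 7 downstream genes ran from −0.36 (Syk) to −0.53 (Plcg2 and Vav1), with SE up to 0.22, and without N-AS library 3 they ran from −0.20 to −0.45. Over the 9 genes the differences were −0.75 to −0.08 within libraries 1 to 6 and −2.03 to −0.73 within libraries 7 to 10 of the labels, where the second set holds 1 N-AS library. The sign was the same in both sets for 9 of 9 genes, although the size depended on the set.

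The 14 microglial markers were 0.63 lower in the N-AS libraries than in APP/PS1 on the log2 scale, and the 9 genes were 0.62 lower on average. The summed CPM of the receptor and phagocyte genes was 1775 to 2532 in the N-AS libraries, below the APP/PS1 range. Relative to the markers, Trem2 was 0.62 and Tyrobp 0.46 lower with N-AS, without overlap. Syk was 0.27 and Pik3ap1 0.22 higher relative to the markers, also without overlap, and the other 5 genes were 0.08 to 0.18 higher with overlapping groups. Against the 9 receptor and phagocyte genes, Lyn, Syk, Blnk, Plcg2 and Pik3ap1 were higher without overlap (0.20 to 0.39), and Vav1 and Inpp5d overlapped. Against the 5 homeostatic genes all 7 downstream genes overlapped (−0.14 to 0.04). Trem2 and Tyrobp were lower without overlap against that reference too (−0.84 and −0.68). The part of the markers in the lower levels was not tested.

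To see what remained after treatment, APP/PS1+N-AS was compared with WT. Trem2 was 4.44-fold and Tyrobp 5.03-fold higher than in WT, and these 2 genes passed (log2 fold changes 2.15 ± 0.29 and 2.33 ± 0.28, edgeR adjusted p = 0.0187 and 0.0160), against 0.176% of all genes. Both calls were lost when WT library 1, WT library 2, N-AS library 1 or N-AS library 2 was left out, with log2 fold changes of 1.94 to 2.11 for Trem2 and 2.19 to 2.24 for Tyrobp in those fits and edgeR adjusted p up to 0.127. They were also lost with the replicate block (edgeR adjusted p = 0.0841 for both) and in a fit of only the 2 groups (edgeR adjusted p = 0.182 for Trem2 and 0.161 for Tyrobp). Without N-AS library 3, 3 of the 9 genes passed, Inpp5d with an edgeR adjusted p of 0.0100. In that fit 114 of all 19914 genes tested were called higher. Its N-AS libraries held 7024 and 8848 Xist reads and the WT libraries 33 to 37. Group and Xist state therefore cannot be told apart in that fit.

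The 7 downstream genes were 0.41 to 0.94 higher on the log2 scale than in WT and did not pass (edgeR adjusted p between 0.121 and 0.758). Together with Trem2 and Tyrobp, 6 genes (those 2, Lyn, Vav1, Pik3ap1 and Inpp5d) had every N-AS library above every WT library, against 4.9% of all genes. Inpp5d was the highest of the downstream genes in this comparison (0.94 ± 0.21) and Plcg2 the lowest (0.41 ± 0.18). Within libraries 7 to 10, with 1 library in each of these groups, Blnk differed by −0.01, and the other 8 genes were higher in both sets. The size depended on the set. Trem2 was 2.60 and Tyrobp 2.82 higher within libraries 1 to 6, against 1.14 and 1.34 within libraries 7 to 10. In the latter set WT library 3 held 33 Xist reads and N-AS library 3 held 29. The 3 comparisons share libraries and are not independent of each other.

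The other genes of the pathway were taken from a list of 65 genes, of which 64 were in the files and 59 were tested. In APP/PS1 against WT 13 of the 59 rose and 0 fell, beside 2.67% and 0.796% of all genes, and the median log2 fold change was 0.27 against −0.07 over all genes. This count was 8 without APP/PS1 library 3, a fit in which 263 of all 18538 genes tested rose. Neutrophils also express many of these genes, and their 4 markers in the files summed to 2.57 to 79.3 CPM in APP/PS1, with 79.3 CPM in library 3, whereas WT libraries held 2.84 to 6.25 CPM and N-AS libraries 5.09 to 14.03 CPM, and their part in the result was not tested.

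Of 7 tested paired receptors and other adaptors, 3 rose. Fcer1g, the adaptor of Fc receptors that carries an ITAM like that of Tyrobp, was at 5.94 to 9.10 CPM in WT and at 42.4 to 54.1 CPM in APP/PS1 (log2 fold change 2.66, edgeR adjusted p = 0.000379). Clec5a and Siglech, receptors that pair with TYROBP, rose by 1.57 and 1.39. Neither of the 2 sheddases tested, Adam10 and Adam17, which can cut TREM2 from the cell surface, passed (edgeR adjusted p = 0.0573 at the lowest).

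Among the Src family and Tec family kinases, Btk, a Tec family kinase that activates PLCG2, rose (log2 fold change 1.26). Of 11 adaptors and scaffolds, 3 rose, Lat2 (2.47), Sh3bp2 (1.05) and Gab2 (0.80), and of 7 phospholipases, exchange factors and small GTPases, 2 rose, Rac2 (1.05) and Rasgrp3 (0.73). Lat2, a membrane scaffold of myeloid and B cells, was at 16.3 to 24.8 CPM in APP/PS1. Of 9 PI3 kinase subunits and lipid phosphatases 1 rose, Pik3cg (1.21), the catalytic subunit found mainly in leukocytes.

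Of 3 protein phosphatases 2 rose, Ptprc (2.12), which encodes CD45, and Ptpn6 (1.97), which encodes SHP-1, an inhibitor of ITAM signalling. Of 11 downstream kinases, calcium channels and members of the CARD9 complex 0 passed, with a lowest edgeR adjusted p of 0.0569. Transcripts of Inpp5d and Ptpn6, which both restrain this signalling, rose in the same comparison as Trem2. The mean of the 14 microglial markers was also 1.62 higher there on the log2 scale, and its part in these rises was not tested.

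With N-AS against APP/PS1, 0 of the 59 genes passed in edgeR's test. At an unadjusted p under 0.05, 11 were lower and 3 higher, against 4.05% and 4.78% of all genes. DESeq2 called 1 of the 59, beside 57 lower and 22 higher of all 18727 genes. The median log2 difference was −0.15, against −0.01 over all genes. In APP/PS1+N-AS against WT, 2 of the 59 rose, against 0.176% of all genes, Fcer1g (log2 fold change 1.53, edgeR adjusted p = 0.0312) and Lat2 (1.64, edgeR adjusted p = 0.0479). This count was 0 when WT library 1 or 2, N-AS library 1 or 2 or any APP/PS1 library was left out. It was 3 without WT library 3, beside 39 of all 19112 genes, and 5 without N-AS library 3, beside 114 of 19914.

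**Figure D5:**
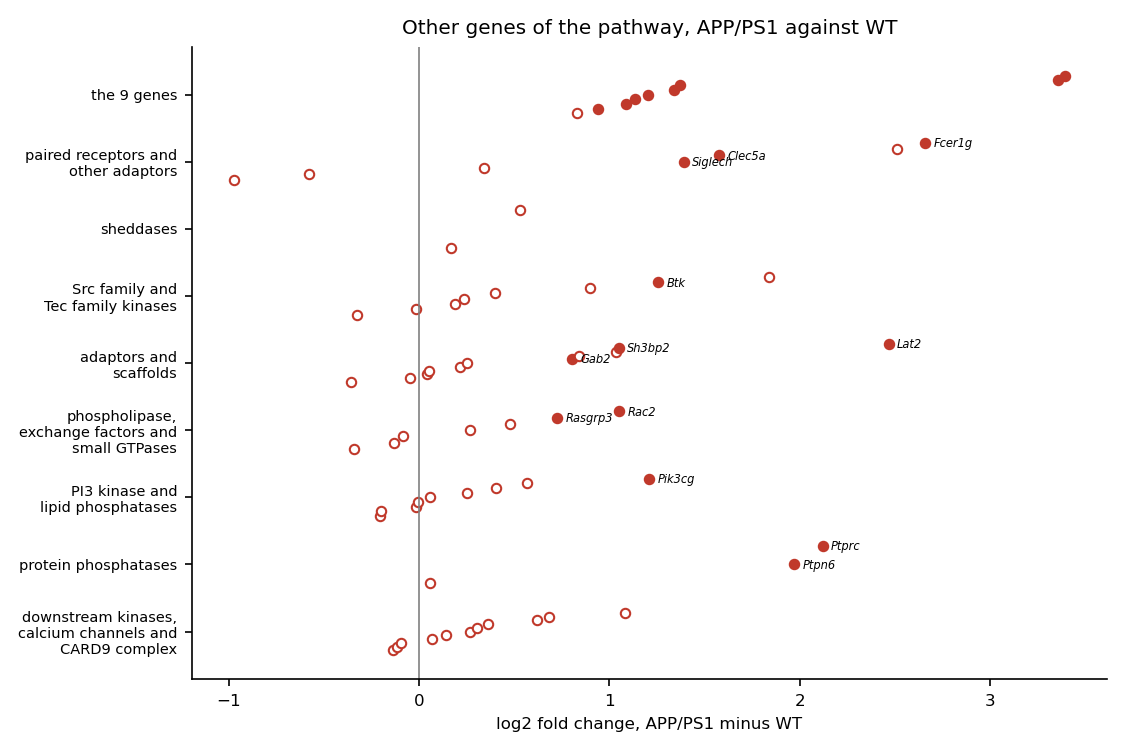
Log2 fold changes of APP/PS1 against WT (x axis) for the 9 genes and for the other pathway genes reported, by group. Filled points have an edgeR adjusted p under 0.05 and those among the other pathway genes are named. No gene passed below 0, and Fcer1g (2.66) and Lat2 (2.47) lie farthest above it among the named genes.

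Finally, the genes with the pattern most like that of Trem2 and Tyrobp were listed, by the root mean square difference of log2 CPM over the 10 libraries after each gene's mean had been removed. Trem2 and Tyrobp were each other's nearest gene (0.163), against a median of 1.51 for Tyrobp to all genes tested. The next nearest to Tyrobp were Mpeg1 (0.244), Bcl2a1d (0.248), Ccl6 (0.291) and Cd68 (0.294), and those to Trem2 were Cd68 (0.244), Bcl2a1d (0.255), Mpeg1 (0.269) and Ctsd (0.306). Mpeg1 encodes a pore-forming protein of macrophages, Cd68 and Ctsd encode lysosomal proteins, and Ccl6 a chemokine. Bcl2a1d has near-identical copies in the genome, so its reads could be split between them.

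Among the 9 genes the downstream members resembled each other more than they resembled the receptor pair. Lyn and Pik3ap1 were closest (0.0434) and Tyrobp and Syk farthest apart (1.12). Trem2 and its nearest downstream gene, Inpp5d, differed by 0.841. These values share libraries and group differences and are given as a description.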

How the data were processed

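Microglial RNA was depleted of ribosomal RNA and made into stranded libraries by the submitters, who aligned the reads with TopHat to mm10 per the labels. The authors deposited raw read counts per gene symbol for 10 libraries, without normalization or filter. The annotation, the versions and the strand of counting are not given in the sources used here. The files hold 24481 lines for 24421 symbols, and 103 lines that share 43 symbols were summed. Genes were filtered with filterByExpr, scaled by TMM and tested with edgeR 4.0.16 in R 4.3.3 (glmQLFit and glmQLFTest, one model of 3 groups, 18727 genes, Benjamini-Hochberg adjusted p under 0.05). A prior count of 2 entered log2 CPM, and the common dispersion was 0.0752.

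Replicate libraries of a group differed by more than sampling noise (chi-square per degree of freedom of 13.2 or more). Total counts ranged from 8805804 to 19432075 and PCR copies were not marked, so counting alone understates the error. Same-numbered libraries, numbered in the labels, correlated after removal of group means in N-AS against APP/PS1 (r = 0.142 to 0.309), which met the rule for pairing. In the other comparisons the range included negative values. The main tests were unpaired throughout, and the replicate block changed no call in N-AS against APP/PS1. Ratios were compared by exact permutation tests over libraries. Positions and lengths came from the GENCODE M21 annotation of GRCm38 and promoters from RefSeq. The members, the pathway list of 65 genes and the marker lists were chosen with earlier results of these data known. Named pathway genes were, in each group, up to 3 with the lowest p among those that passed in APP/PS1 against WT, plus those that passed in another comparison, and the 5 genes nearest in pattern to Tyrobp and to Trem2, and 1 pathway gene under this rule is not reported here singly. The alternatives were DESeq2 1.42.0, limma 3.58.1 voom with quantile normalization, total-count and upper-quartile scaling, other filters on low counts, fits of only the groups compared, the replicate block, the library number set as a covariate, other reference markers, a prior count of 0.5 and each library left out. edgeR's test was also tried on simulated data.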

Additional observations from a re-analysis of the deposited data

Results flagged for a closer look

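In groups of 4 libraries, a library was taken to stand apart when its gap to the nearest other library, as a share of the group's range, passed Dixon's critical value, which chance passes in about 1 in 20 groups. Of 37 values examined over the APP/PS1 libraries, 3 passed. The log2 CPM of Inpp5d minus that of Syk was 1.77 in APP/PS1 library 3 and 2.22 to 2.30 in the others, and Syk was highest in that library (38.6 CPM). The B-cell markers summed to 5.73 CPM in APP/PS1 library 3 and to 2.31 to 2.62 CPM in the others. The neutrophil markers summed to 79.3 CPM in APP/PS1 library 3 and to 2.57 to 6.77 CPM in the others. All 3 flagged values were thus from the same library, and they are not independent of each other.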

How the results depend on the processing

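All 9 genes kept their direction in all 3 comparisons under every alternative of the count test. In N-AS against APP/PS1, DESeq2 called 2 of the 9 genes and 1 other pathway gene, where edgeR called 0 of each. In N-AS against WT, the 2 calls among the 9 genes became 6 with DESeq2 and 0 both in a fit of only the 2 groups and with the replicate block, and ranged from 0 to 3 when a library was left out. The 2 calls among other pathway genes became 7 with DESeq2, 1 with upper-quartile scaling, 1 without WT library 1 and N-AS library 3 together (chosen after seeing the data), and 0 with voom, total counts, the 2-group fit or the replicate block, and ranged from 0 to 5 when a library was left out. In APP/PS1 against WT the 13 calls among other pathway genes ranged from 8 to 15 when a library was left out. They became 19 with DESeq2, 17 with the library number set as a covariate and 9 with the replicate block. The replicate block also lost Blnk (adjusted p = 0.0623). The block changed no other call among the 9 genes except Trem2 and Tyrobp in N-AS against WT (adjusted p = 0.0841 for both), and in N-AS against APP/PS1 it gave −1.07 for Trem2 and −0.97 for Tyrobp on the log2 scale (adjusted p = 0.542 for both). Over all genes, 500 were called higher and 149 lower in APP/PS1 against WT, against 862 and 483 with DESeq2, 250 and 76 with the replicate block, 354 and 56 in the 2-group fit and 751 and 304 with the library number set as a covariate. In N-AS against APP/PS1, DESeq2 called 22 higher and 57 lower over all genes. In N-AS against WT it called 161 higher and 27 lower, where edgeR called 33 and 2.

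The 9 genes minus the microglial markers, 0.0042 in APP/PS1 against WT on the log2 scale, was −0.36 with the 9 receptor and phagocyte genes as reference, 0.67 with the 5 homeostatic genes and 0.20 within libraries 7 to 10. In N-AS against APP/PS1 it was 0.13, −0.22 and −0.10 in the same order, and 0.072 within libraries 1 to 6. In N-AS against WT it was −0.23 and 0.45 with the 2 references. Trem2 minus Tyrobp in APP/PS1 against WT turned to 0.0056 within libraries 7 to 10 and ranged from −0.12 to 0.018 when a library was left out. Plcg2 minus Syk turned to −0.033 within libraries 1 to 6 (APP/PS1 against WT, −0.050 to 0.41 when a library was left out) and to 0.24 within libraries 7 to 10 (N-AS against WT, −0.24 to 0.22). The cause of these changes was not tested. Tyrobp in WT rested on 52 to 203 reads per library, which limits its precision.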
